A study of Homo sapiens with 4 samples.

Results

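Translation elongation factors carry the ribosome along an mRNA after initiation. EEF1A1 and its close paralogue EEF1A2 bring aminoacyl-tRNA to the ribosome bound to GTP, and EEF1B2, EEF1D and EEF1G form the complex that reloads them with GTP. EEF2 moves the ribosome to the next codon, and EEF1E1 is a small subunit of the complex that holds several tRNA synthetases. EEF1A1 is made in nearly all tissues, while EEF1A2 is normally found in muscle and neurons, where it takes the place of EEF1A1. The mRNAs of EEF1A1, EEF1B2, EEF1D, EEF1G and EEF2, like those of ribosomal proteins, belong to the TOP class, which starts with a tract of C and T and is translated under the control of mTOR.

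The family was taken as every probe set of the array whose platform annotation names 1 of 7 genes, EEF1A1, EEF1A2, EEF1B2, EEF1D, EEF1E1, EEF1G and EEF2. This gave 17 of the 54613 probe sets other than Affymetrix controls, for 6 of the 7 genes. The annotation names no probe set for EEF1E1, so its level is not reported here. EEF1A1 had 6 probe sets, EEF1D had 4, EEF1G had 3, EEF2 had 2, and EEF1A2 and EEF1B2 had 1 each. Of the 17, 13 name a member alone. The 3 of EEF1G also name the microRNA MIR3654, and that of EEF1B2 also names SNORA41, a small nucleolar RNA that lies inside EEF1B2 in RefSeq. RefSeq (GRCh38.p14) lists 50 EEF1A1 pseudogenes, and in Affymetrix naming the ending x_at marks probes that may bind other sequences too, so the x_at signals of EEF1A1 may include RNA from similar loci.

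The samples were clones of SW620, 1 CD133+ and 1 CD133-, each measured on 2 arrays. SW620 is a line of human colon adenocarcinoma cells grown from a metastasis. CD133, encoded by PROM1, is a surface protein used to sort tumour cells. Cells were separated by CD133 with magnetic beads, single cells were grown into clones in L-15 medium with serum, and the clone cells were sorted by CD133 again before total RNA was taken. Each group is 1 clone, so CD133 status and clone cannot be told apart, and the labels do not give separate cultures for the arrays of a clone. Errors and p-values therefore cover only the spread between arrays, which may be technical.

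PROM1 had log2 signals of 8.46 and 8.73 on the CD133+ arrays, against 3.31 and 3.35 on the CD133- arrays, as the labels say. Of the 10 colon epithelial markers, KRT18 and KRT8 were at 13.08 or above on all arrays and KRT20 at 3.78 or below. None of the 10 passed the test below, and 5 were positive, with a median log2 difference of -0.03. Of the 10, 4 had an unadjusted p under 0.05, against 15.9% of all genes: EPCAM at -0.26, VIL1 at -0.35, KRT8 at -0.17 and CDH1 at 0.26. Arrays of the clones did not overlap in 4 that were lower and 3 that were higher in CD133+ cells, against 48.1% of all genes in either direction. Of 8 measured markers of leukocytes, fibroblasts and endothelium none passed the test below, in either direction or at an unadjusted p under 0.05; all 8 were positive in sign, with a median log2 difference of 0.20, signals from 3.35 to 7.16 in CD133+ cells and from 2.95 to 7.22 in CD133- cells, and PTPRC of leukocytes at 3.55 to 3.88. The part of these in the results was not tested. RNA length, read from the 3' minus 5' control signals of ACTB, gave 0.69 and 1.92 in CD133+ and 1.16 and 0.91 in CD133- (log2), with CD133+ replicate 2 apart from the others. The same measure for GAPDH gave 0.088 and 0.064 in CD133+ and 0.015 and 0.041 in CD133-, without that array apart. Arrays of a clone correlated across probe sets with r = 0.991 in both groups, and arrays of different clones with r from 0.979 to 0.990.

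The start regions of several members carry the tract that defines TOP mRNAs and are shown for that reason. Start regions from RefSeq (GRCh38.p14) were searched for EEF1A1, EEF1B2, EEF1E1, EEF1G and EEF2, in 6 entries, and those of EEF1A2 and EEF1D were not analysed here. Of the entries 3 had both the letters TATAA in the 50 bases before the start and a C followed by at least 4 letters that are all C or T, the C lying within 10 bases of the start. These 3 are printed below from 50 bases before the start to 10 bases after it, 5′ to 3′, with TATAA and the C and T tract in capitals. They lie at chr6:73521023-73521082 on the minus strand (EEF1A1), at chr2:206159845-206159904 on the plus strand (EEF1B2) and at chr19:3985454-3985513 on the minus strand (EEF2).
EEF1A1: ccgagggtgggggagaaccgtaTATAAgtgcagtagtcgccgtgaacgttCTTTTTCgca
EEF1B2: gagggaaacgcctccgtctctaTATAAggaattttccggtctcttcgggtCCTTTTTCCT
EEF2: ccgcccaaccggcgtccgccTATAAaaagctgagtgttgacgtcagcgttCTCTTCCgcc
The tract began at the first transcribed base in all 3. Over 35116 RefSeq start regions, 4.74% held TATAA on the strand of the gene in this window and 6.08% on either strand, 33.5% held such a tract, and 1.53% held both on the strand of the gene. The entries of EEF1E1 and EEF1G and another start of EEF1B2 held neither by this definition. It says only that TATAA was not in the window and that no such tract began within 10 bases of the start. The EEF1G entry held a run of C and T further before the start.

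EEF1A2 had the largest difference of the members and was higher in CD133+ cells. Its probe set (204540_at) had log2 signals of 7.07 and 7.60 on the CD133+ arrays, against 5.64 and 6.02 on the CD133- arrays. Both CD133+ arrays lay above both CD133- arrays, and the gap between the groups was wider than the gap between arrays of a clone. The means were 7.33 ± 0.38 in CD133+ cells and 5.83 ± 0.27 in CD133- cells (SD, n = 2 each), a log2 difference of 1.504 (SE 0.24) or 2.84-fold. By this difference EEF1A2 ranked 10 among 19777 genes, each taken by its brightest probe set. The family was chosen by this value, since earlier results of these arrays had put EEF1A2 among the genes most increased in CD133+ cells, so it is a description with no test. In bulk RNA, more cells that express EEF1A2 and more EEF1A2 RNA per cell cannot be told apart.

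EEF1A1, the common form of the same factor, differed little on its brightest probe sets. On 204892_x_at the log2 signal was 14.42 and 14.32 on the CD133+ arrays, against 14.42 and 14.40 on the CD133- arrays, a difference of -0.04 (SE 0.04). These signals lie close to 14.57, the highest value deposited for any probe set. The other 3 bright x_at probe sets gave differences from -0.07 to -0.03, with overlapping arrays. A further probe set, 1557120_at, had 6.36 and 6.62 on the CD133+ arrays, against 6.32 and 6.61 on the CD133- arrays, so replicate arrays differed more than the groups did. Only 227708_at separated the clones. It had 9.01 and 8.99 on the CD133+ arrays, against 9.56 and 9.25 on the CD133- arrays, lower in CD133+ cells by a log2 difference of -0.41 (SE 0.14). Thus 5 of 6 EEF1A1 probe sets were negative in sign, and the sign of those near 0 depended on the setting: the 4 bright ones ranged from -0.18 to 0.05 over 7 alternatives in scaling, pairing and arrays used. Signals of different probe sets are on separate scales, so the amounts of EEF1A1 and EEF1A2 RNA cannot be set against each other.

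**Figure D1:**
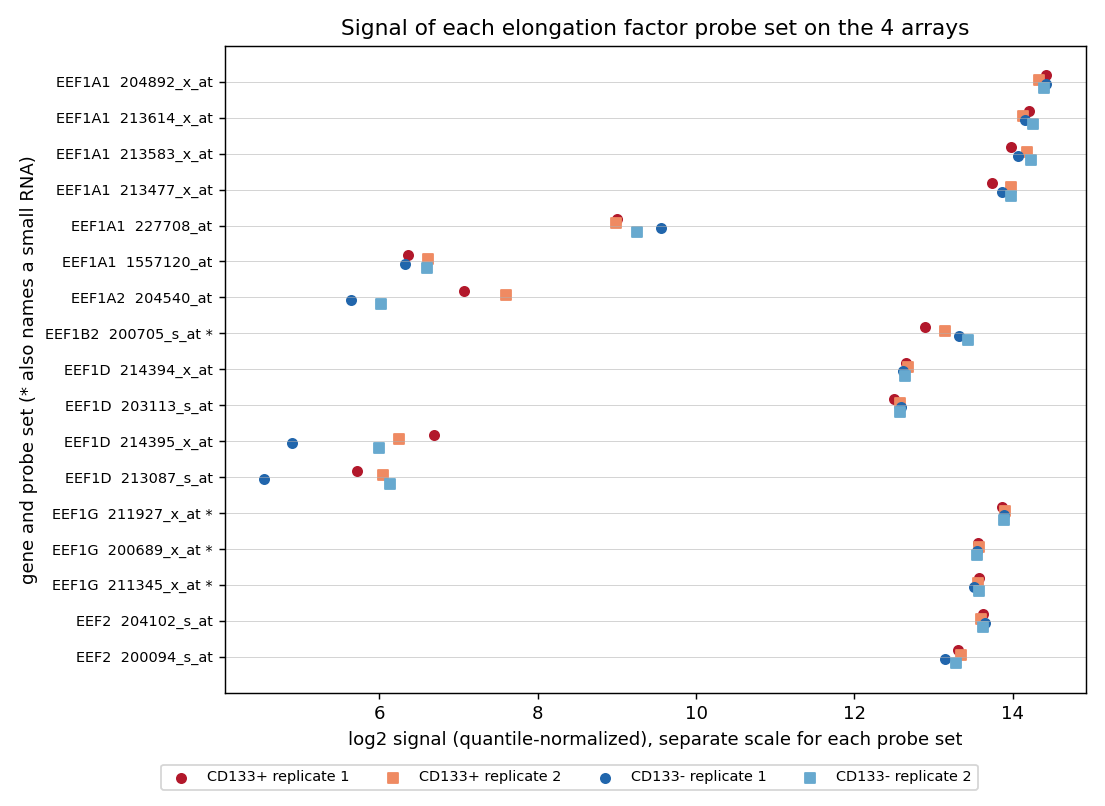
Quantile-normalized log2 signal (horizontal axis) of the 17 elongation factor probe sets (rows) on the 2 CD133+ arrays (red) and the 2 CD133- arrays (blue), with replicate 1 as circles and replicate 2 as squares. The red and blue symbols of EEF1A2 are apart, at 7.07 and 7.60 in CD133+ and 5.64 and 6.02 in CD133-, while those of the EEF1G and EEF2 rows nearly coincide; positions in different rows are not comparable.

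Among the subunits that reload EEF1A with GTP, EEF1B2 was lower in CD133+ cells. Its probe set (200705_s_at) had 12.89 and 13.15 on the CD133+ arrays, against 13.32 and 13.44 on the CD133- arrays. The groups did not overlap, with a log2 difference of -0.36 (SE 0.086), or 0.780-fold. EEF1G, the structural subunit, hardly differed in signal: its probe set 211927_x_at had 13.86 and 13.90 on the CD133+ arrays, against 13.89 and 13.89 on the CD133- arrays. The 3 EEF1G probe sets gave log2 differences from -0.01 to 0.02, with SE between 0.04 and 0.05.

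EEF1D, the other exchange subunit, gave different pictures on its bright and its dim probe sets. The bright set 203113_s_at had 12.50 and 12.58 on the CD133+ arrays, against 12.59 and 12.58 on the CD133- arrays. The other bright set, 214394_x_at, had 12.65 and 12.68 on the CD133+ arrays, against 12.61 and 12.64 on the CD133- arrays, so both differed by less than 0.05 on the log2 scale. The dim set 214395_x_at had 6.69 and 6.25 on the CD133+ arrays, against 4.90 and 5.996 on the CD133- arrays, a log2 difference of 1.02 (SE 0.36). The dim set 213087_s_at had 5.71 and 6.04 on the CD133+ arrays, against 4.55 and 6.13 on the CD133- arrays, a log2 difference of 0.54 (SE 0.46). On both dim sets CD133- replicate 1 was the lowest array, with log2 gaps of -1.10 and -1.17 to the next, and without that array the log2 differences were 0.47 and -0.25.

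EEF2 was nearly level in signal between the clones. Its probe set 204102_s_at had 13.62 and 13.60 on the CD133+ arrays, against 13.65 and 13.62 on the CD133- arrays. The set 200094_s_at had 13.30 and 13.34 on the CD133+ arrays, against 13.15 and 13.28 on the CD133- arrays, a log2 difference of 0.11 (SE 0.059), with CD133- replicate 1 the lowest.

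**Figure D2:**
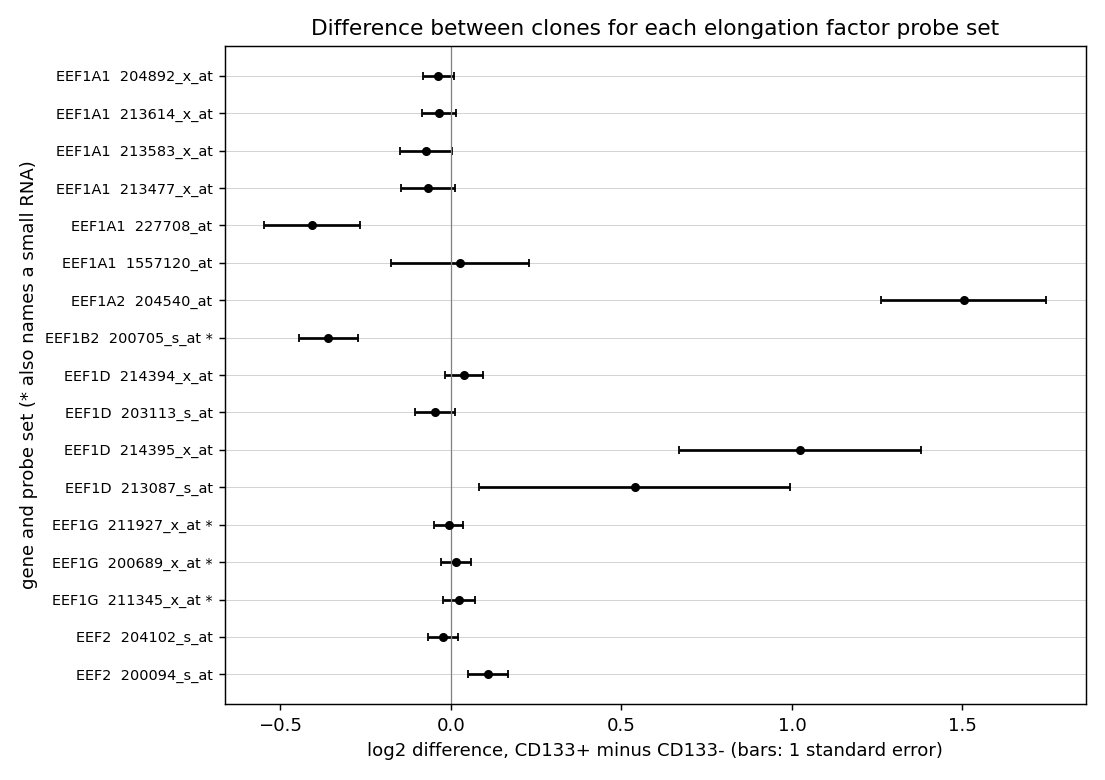
Log2 difference between CD133+ and CD133- arrays (horizontal axis, bars 1 standard error) for the 17 probe sets (rows). EEF1A2 at 1.504 and the dim EEF1D set at 1.02 stand to the right, EEF1B2 at -0.36 and 1 EEF1A1 set at -0.41 to the left, and 12 of the 17 lie within 0.12 of 0.

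Across the 17 probe sets the median log2 difference was -0.006, against 0.015 over all probe sets, with 8 positive and 9 negative. The arrays of the clones did not overlap in 7 of the 17, 5 higher and 2 lower in CD133+ cells, against 43.9% of all probe sets, 23.5% higher and 20.4% lower. The same contrast chose the family, so the calls of limma, a linear model that shares variance across probe sets, are only described. A probe set was called at a Benjamini-Hochberg adjusted p under 0.05. Of all probe sets, 0.181% were called, 27 higher and 72 lower in CD133+ cells. In the values as deposited the calls were 3 higher and 3 lower, and with arrays centred on their medians 7 higher and 25 lower. None of the 17 was called, and 4 had an unadjusted p under 0.05, against 12.7% of all probe sets. In a fit of 15821 genes by their brightest probe set, without the dimmest 20%, EEF1A2 was called and EEF1A1, EEF1D and EEF2 were not, against 3.74% of genes called, 1.36% higher and 2.38% lower. The probe sets of EEF1G and EEF1B2 name several genes and were not in that fit. EEF1A2 was called in 5 of 15 alternatives: the gene fit, the mean of probe sets, without probe sets below the median level, with the replicate number as a block and without CD133+ replicate 1. The 15 include an adjusted p under 0.01 and a test against a 1.5-fold change. Both are stricter forms of the main fit, so a probe set that missed the threshold there could not pass them. For any single probe set, exact two-sided permutation of 4 arrays gives a p of 0.333 at the lowest.

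The genes whose signal followed EEF1A2 most closely over the 4 arrays were the spindle checkpoint gene MAD1L1, the stress-responsive gene NDRG1 and the laminin chain LAMB3. Likeness was the Euclidean distance between signals centred on their own mean, over 19776 genes compared, and was 0.29, 0.33 and 0.42. MAD1L1 had 8.54 and 8.89 on the CD133+ arrays, against 6.93 and 7.09 on the CD133- arrays. With 4 arrays in 2 groups this measure mostly finds genes with a difference of similar size, and it is given as a description.

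Most genes next to EEF1A2 on chromosome 20 had positive log2 differences as well. Of the 20 nearest measured genes, 10 on each side in RefSeq order, 18 were positive and 2 negative. Their median log2 difference was 0.25, against 0.047 over all genes, with a range from -0.36 to 0.52. Arrays of the clones did not overlap in 12 that were higher and 1 that was lower, against 48.1% of all genes in either direction. None was called by limma (3 of 20 at an unadjusted p under 0.05, against 15.9% of all genes), nor in the gene fit. FLJ16779 and SRMS were too dim to be in that fit. The neighbours on either side, COL20A1, a collagen, and PPDPF, were at 0.45 (SE 0.21) and 0.08 (SE 0.14). The highest of the 20 was RTEL1, a DNA helicase, at 0.52 (SE 0.18). Many of the 20 had low signals, such as BHLHE23 with means of 4.25 in CD133+ and 3.95 in CD133- cells. Among the brighter ones, YTHDF1 was at 0.05, GMEB2 at 0.04 and ARFGAP1 at 0.30. The 8 measured markers of other cells, mostly dim as well, were also all positive, with a median of 0.20. Whether the neighbours differ from other genes of such levels was not tested.

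EEF1B2 lies on chromosome 2 within a stretch where most neighbours had negative log2 differences too. Of its 20 nearest measured genes, 15 were negative and 5 positive. Their median log2 difference was -0.21, against 0.047 over all genes, with a range from -1.71 to 0.18. Arrays did not overlap in 11 that were lower and 2 that were higher, against 48.1% of all genes in either direction. None was called by limma over all probe sets (8 of 20 at an unadjusted p under 0.05, against 15.9% of all genes). CD28, CMKLR2-AS, CPO and MYOSLID-AS1 were too dim to be in the gene fit. In that fit 4 of the others were called, all lower, against 2.38% of genes called lower. These were NBEAL1 at -1.71, FASTKD2 at -0.96, the transcription factor CREB1 at -0.80 and NDUFS1, a subunit of respiratory complex I, at -0.62, with limma adjusted p between 0.0215 and 0.0332 there and between 0.0880 and 0.104 over all probe sets. With the probe sets of a gene averaged, none of the 4 was called (limma adjusted p between 0.105 and 0.353), and NBEAL1 was at -1.03, FASTKD2 at -0.91, CREB1 at -0.45 and NDUFS1 at -0.54.

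**Figure D3:**
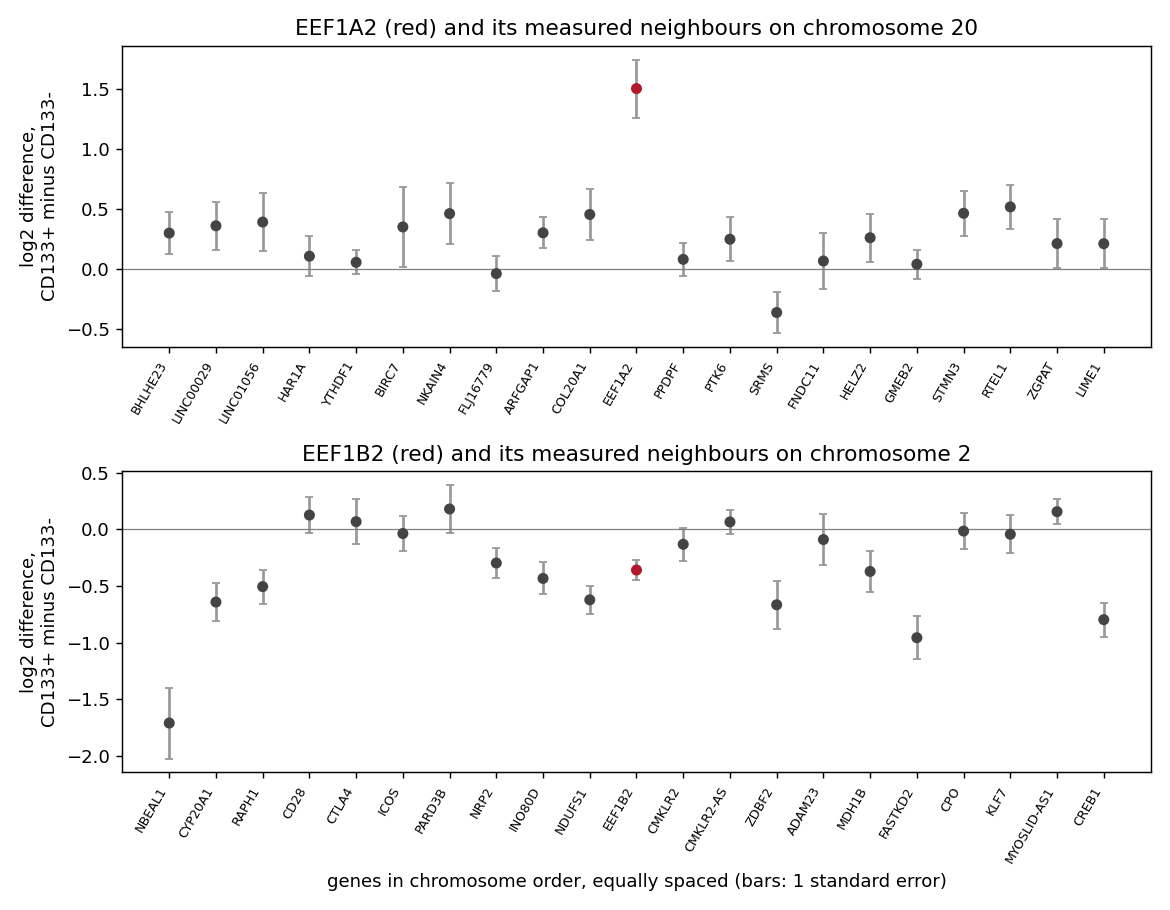
Log2 difference between CD133+ and CD133- arrays (vertical axes, bars 1 standard error) for EEF1A2 (upper panel) and EEF1B2 (lower panel), both in red, and their 20 nearest measured genes in chromosome order. EEF1A2 at 1.504 stands above all its neighbours, which reach 0.52 at most, while EEF1B2 at -0.36 lies among neighbours of which 15 of 20 are negative.

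The rest of the translation machinery was then compared, each gene by its brightest probe set. Of 90 listed genes 79 were measured, and EIF3B alone was called, against 0.329% of all genes, 0.101% higher. The median log2 difference was 0.004, against 0.047 over all 19777 genes. EIF3B, a scaffold subunit of initiation factor eIF3, rose. It had 11.63 and 11.62 on the CD133+ arrays, against 10.997 and 10.96 on the CD133- arrays, a log2 difference of 0.65 (SE 0.075, limma adjusted p = 0.0414), and all 6 of its probe sets had this sign. EIF3B lies on chromosome 7, as do MAD1L1 and the initiation factor EIF4H, which was at 0.11 (SE 0.074). Any link to chromosome position was not tested. EIF3B missed the threshold on the deposited scale (adjusted p = 0.0854), with centred arrays (0.121), with the mean of its probe sets (0.0914), and when CD133- replicate 1 (0.209) or replicate 2 (0.0884) was left out. It was called in 7 of 15 alternatives, the lowest adjusted p being 0.00669.

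Of the 36 measured initiation factors and their regulators, 35 did not pass, and the list had a median of -0.003. EIF4A2 (2.96 to 3.14) and EIF3C (3.04 to 3.42) were dim on the only probe set naming each alone, which tells little about these genes. Both were outside the gene fit, which held 34 of the list. EIF4EBP2, a repressor of the cap-binding protein, had 9.20 and 8.98 on the CD133+ arrays, against 8.15 and 8.26 on the CD133- arrays, a log2 difference of 0.88 (SE 0.14, limma adjusted p = 0.0693). It passed in 4 of 15 alternatives, among them the gene fit (limma adjusted p = 0.0136), and 4 of its 5 probe sets had this sign. With its probe sets averaged the log2 difference was 0.44 (limma adjusted p = 0.220). Its relative EIF4EBP1 was at -0.08 (SE 0.13).

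None of the 19 measured partners and modifying enzymes of elongation factors passed in limma, in the probe-set or the gene fit. Of the 19, 4 had an unadjusted p under 0.05, against 15.9% of all genes, and the median of the list was 0.03. EEF1AKMT2, which methylates EEF1A, had 6.23 and 6.56 on the CD133+ arrays, against 7.28 and 7.22 on the CD133- arrays, a log2 difference of -0.86 (SE 0.19, limma adjusted p = 0.132). The arrays did not overlap, and 2 of its 3 probe sets had this sign. EEF2KMT, a methyltransferase of EEF2, was at -0.70 (SE 0.21, limma adjusted p = 0.246). EEFSEC, which brings selenocysteine tRNA to the ribosome, was at 0.72 (SE 0.23, limma adjusted p = 0.267). EEF2K, the kinase that inactivates EEF2, had 6.52 and 6.37 on the CD133+ arrays, against 6.99 and 6.94 on the CD133- arrays, a log2 difference of -0.52 (SE 0.18, limma adjusted p = 0.286), also without overlap. EIF5A, the factor that carries hypusine, was at 0.03 (SE 0.052) and VARS1, the valyl-tRNA synthetase that binds the EEF1 complex, at -0.13 (SE 0.14).

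No mitochondrial elongation factor passed (0 of 4 in limma in both fits, and 0 at an unadjusted p under 0.05). TSFM, the mitochondrial exchange factor, was at 0.22 (SE 0.12), and only 1 of its 3 probe sets had this sign. GUF1 was at -0.27 (SE 0.18). TUFM, the mitochondrial counterpart of EEF1A, was at 0.08 (SE 0.096), with this sign on 1 of its 2 probe sets. The multi-synthetase complex that EEF1E1 belongs to had 6 measured members, none past the test in either fit or at an unadjusted p under 0.05. Its log2 differences ran from -0.08 to 0.16, with EPRS1 at 0.16, IARS1 at 0.13, RARS1 at -0.08 and the scaffold AIMP1 at -0.05. Only 1 of the 3 EPRS1 probe sets was positive. AIMP2 has no probe set of its own in the annotation. Of 6 termination and recycling factors none passed in either fit (1 at an unadjusted p under 0.05, against 15.9% of all genes). PELO, a ribosome rescue factor, was at -0.37 (SE 0.11), and only 1 of its 3 probe sets had this sign. The release factor ETF1 was at 0.17 (SE 0.082) and GSPT1 at -0.11 (SE 0.082).

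Other TOP mRNAs were compared as genes whose mRNAs start like those of the elongation factors. Of 8 measured none passed in either fit (3 at an unadjusted p under 0.05, against 15.9% of all genes), with a median of 0.01. The largest was that of BTF3, a subunit of the nascent chain complex, at -0.36 (SE 0.074, limma adjusted p = 0.115). HNRNPA1 was at -0.14 (SE 0.056), VIM at 0.23 (SE 0.091), the poly(A)-binding protein PABPC1 at 0.09 (SE 0.11) and TPT1 at -0.03 (SE 0.041). For VIM and for PABPC1, 1 of 2 probe sets had the sign given. Of 53 measured ribosomal proteins 0 passed in either fit (3 at an unadjusted p under 0.05, against 15.9% of all genes). Of the 53, 18 were positive, with a median of -0.02. RPL10A was at -0.29 (SE 0.085), RPS23 at -0.19 (SE 0.057) and RPL37A at -0.14 (SE 0.049), and 1 of the 2 RPL10A probe sets was negative. The list ran from -0.50 to 1.22. Its 2 widest differences were those of RPLP2 at 1.22 (SE 0.74) and RPL27A at 0.88 (SE 0.47), with overlapping arrays. With probe sets that also name small RNAs, 65 were measured and the median was again -0.02.

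Genes of skeletal muscle and neurons were compared because EEF1A2 is normally made there. Of 14 measured muscle genes 1 rose, 0 fell and 13 did not pass, against 0.329% of all genes called, 0.101% higher. Of the 14, 9 were positive, with a median log2 difference of 0.14, against 0.047 over all genes. In the gene fit, which held 10 of them, 1 rose and 1 fell, against 3.74% of genes called. The gene that rose in both fits was MYH4, a fast-fibre myosin heavy chain, with 6.37 and 6.47 on the CD133+ arrays, against 4.91 and 4.47 on the CD133- arrays, a log2 difference of 1.73 (SE 0.23, limma adjusted p = 0.0479). MYH4 missed the threshold on the deposited scale (adjusted p = 0.0895), with centred arrays (0.0696), and when CD133- replicate 1 (0.116) or replicate 2 (0.0800) was left out. It was called in 8 of 15 alternatives, the lowest adjusted p being 0.00960. The muscle actin ACTA1 was at -0.02 (SE 0.20), with signals of 4.32 and 3.95 on the CD133+ arrays, against 4.12 and 4.19 on the CD133- arrays. The regulator MYOG was at 0.58 (SE 0.20, limma adjusted p = 0.294) and TTN, the sarcomere spring, at -0.85 (SE 0.18, limma adjusted p = 0.127 over all probe sets). TTN was the gene that fell in the gene fit (limma adjusted p = 0.0373), and 3 of its 6 probe sets had this sign. Its signals were low, 3.57 and 3.49 on the CD133+ arrays, against 4.54 and 4.23 on the CD133- arrays. The level cut of that fit was 3.75. Of the other myosin heavy chains listed, MYH1 was at 0.02 (SE 0.14), MYH2 at 0.13 (SE 0.13) and MYH7 at -0.39 (SE 0.20). Of 14 neuron genes none passed in either fit (3 at an unadjusted p under 0.05, against 15.9% of all genes), with 11 positive and a median of 0.16. GAP43 was at -0.55 (SE 0.18), ENO2 at 0.47 (SE 0.17) and SYP at 0.54 (SE 0.22).

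**Figure D4:**
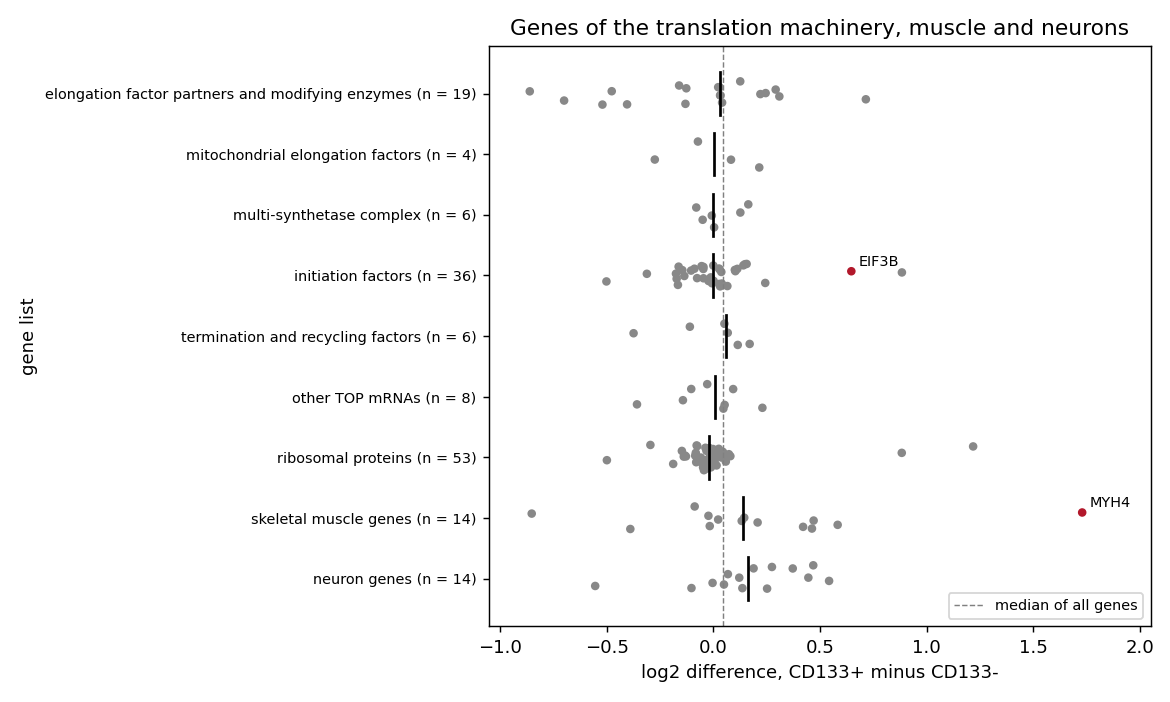
Log2 difference between CD133+ and CD133- arrays (horizontal axis) for each measured gene (points) of 9 gene lists (rows), with the median of each list as a black bar and the median of all 19777 genes, 0.047, as a dashed line. Red points passed at a limma adjusted p under 0.05: EIF3B at 0.65 among 36 initiation factors and MYH4 at 1.73 among 14 muscle genes.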

How the data were processed

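The authors deposited log2 probe-set signals from 4 Affymetrix arrays, 54675 values each, of which 62 are controls. Affymetrix Expression Console was used, per the submitters' processing notes; its version, background correction and normalization are not given in the sources used here. Deposited array medians differed by up to 0.144, so the arrays were quantile-normalized, which removes any overall difference between groups. The number of arrays limits the precision.

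All 54613 other probe sets were fitted in limma 3.58.1 (R 4.3.3) with lmFit and eBayes with a variance trend, CD133+ minus CD133-, with Benjamini-Hochberg adjustment over all of them, since each member probe set was to be shown. The script was tested on simulated data. The annotation names 1 gene for 41091 probe sets, several for 1801, and leaves 11721 unnamed. Listed genes were taken by their brightest probe set naming only them. Members and lists were chosen with earlier results of these data known. Named genes were, per list, up to 4 called or otherwise 3 with the smallest p. To these came 10 always given, the 3 most like EEF1A2 and called neighbours. EIF3C, EIF4A2, EIF4EBP2, EIF4H, RPLP2, RPL27A, uncalled neighbours, muscle genes beside MYH4 and the markers singled out were named after their values were seen. Figures and start-region searches used Python 3.11.15. Alternatives covered scaling, level filter, variance model, unit of test, pairing, threshold and each array left out.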

Additional observations from a re-analysis of the deposited data

How the results depend on the processing

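The count of called probe sets depended on the processing: 2 of 15 alternatives lay within 1.5 times of the 99 calls. It was 6 in the values as deposited, 32 with arrays centred on their medians, 336 without probe sets below the median level, 2 without the variance trend, 592 in the gene fit, 178 with probe sets averaged per gene, 6 at an adjusted p under 0.01, 7 against a 1.5-fold change, and 9 to 520 with an array left out (9 without CD133- replicate 1, 53 without CD133- replicate 2, 314 without CD133+ replicate 2 and 520 without CD133+ replicate 1). The translation genes called outside the family, 1 (EIF3B) in the main setting, numbered 0 on the deposited scale, after centring, without the trend, with probe-set means, at 0.01 and against a 1.5-fold change, 2 without probe sets below the median level and in the gene fit, and 0 to 3 with an array left out. With an array left out, the lone array of its group is assumed to vary like the other group. Arrays share only replicate numbers. Same-numbered deviations correlated at 0.399, and with the replicate number as a block 2409 probe sets were called, EEF1A2 and EEF1B2 among them, and 5 translation genes. EEF1B2 was also called without CD133+ replicate 2. The EEF1A2 log2 difference stayed between 1.24 and 1.77 in every setting run, 1.41 on the deposited scale and 1.33 after centring. Of the 17 member probe sets 6 kept their sign in all 7 alternatives, among them EEF1A2, EEF1B2 (-0.49 to -0.23), 227708_at of EEF1A1 (-0.56 to -0.25) and 214395_x_at of EEF1D (0.47 to 1.57). The cause of these shifts was not tested, beyond fewer features or arrays in the fits built that way. Naming genes also through probe sets that name small RNAs, added after seeing the data, left 1 translation gene called.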

Other observations

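The dim EEF1D probe sets belonged to a small set that was low on CD133- replicate 1 alone. Only 31 of the 54613 probe sets lay at least 1 log2 unit below all 3 other arrays there, a limit chosen after the EEF1D values were seen. Of these 23 carry a gene name, and 9 name an elongation factor or a cytosolic ribosomal protein of the lists used here, against 0.45% of all named probe sets. The 2 EEF1D sets meet the limit by construction and are among the 9, so the share is a description with no test. Besides the 2 of EEF1D they name RPLP2, RPL38 (2 probe sets), RPL37A, RPL27A, RPS10 and RPL14. The RPLP2 set (200908_s_at) had 7.62 and 8.30 in CD133+ cells, against 5.36 and 8.12 in CD133- cells. The RPL27A set (212044_s_at) had 8.45 and 8.77 in CD133+ cells, against 6.86 and 8.59 in CD133- cells. The same list holds the immediate early gene EGR1 and a probe set of the keratin KRT19. The other arrays had 5, 101 and 1 probe sets that far below the rest, for CD133+ replicate 1, CD133+ replicate 2 and CD133- replicate 2. The cause was not tested.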
